A study of Mus musculus with 18 samples.

Results

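The cornified envelope genes examined here are the Lce, Sprr and S100-fused genes of the epidermal differentiation complex on mouse chromosome 3, together with loricrin (Lor), involucrin (Ivl), Crct1, Kprp, Lelp1 and Smcp of the same cluster and cornifelin (Cnfn) on chromosome 7. They were chosen by gene symbol, not by their values, from the probe sets that the platform annotation pairs with exactly 1 gene. This gave 44 probe sets, each of a different gene, of 23410 probe sets with a named gene, and 43 of the 44 genes lie on chromosome 3. Of 51 genes of this kind in the reference gene table, 7 (Flg, Lce1m, Lce3d, Sprr2a1, Sprr2a2, Sprr2a3 and Sprr2c-ps) have no probe set of their own and were not analysed here. The series holds 18 Affymetrix Mouse Gene 1.0 ST arrays, in 6 groups of 3 biological replicates. Mutant mice were K14Cre-Trpa1 fl/fl, with loxP sites around the exons for the pore of the ion channel TRPA1, and control mice, called wild type in the labels, were K14Cre-Trpa1 +/+. Both genotypes thus carried a Cre recombinase transgene under keratin 14 promoter control, expressed in keratinocytes and in sebaceous and sweat glands. All mice were adult males of at least 7 weeks on a mixed C57BL/6, CBA and Swiss Webster background, and the mutant and control lines were bred as separate colonies, so a genotype difference and a colony difference cannot be told apart. Glabrous hindpaw epidermis was taken from naive and from CFA-treated mice of either genotype (called naive control, CFA control, naive mutant and CFA mutant), and lumbar dorsal root ganglia (DRG) came from naive mice of either genotype. CFA, complete Freund's adjuvant, is an oil emulsion with killed mycobacteria that inflames the paw, and epidermis was taken 2 days after its injection. No array came from a vehicle-injected paw, so CFA and the injection itself cannot be told apart.

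The cornified envelope is the protein shell that replaces the plasma membrane of a keratinocyte as it leaves the granular layer and becomes a dead corneocyte. Transglutaminases cross-link it from small precursors: involucrin and the plakin scaffold come first, loricrin makes up most of its mass, small proline-rich (SPRR) proteins bridge the other components, and late cornified envelope (LCE) proteins are added last. The filaggrin-like S100-fused proteins bundle keratin inside the corneocyte or join the envelope, and in stressed or wounded epidermis some Sprr and Lce3 genes are known to be induced while loricrin declines.

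The stretch before the transcription start is shown for 6 members whose fitted response to CFA in control epidermis ran from the deepest falls (Rptn, whose CFA signal was mostly at background, Lce1i and Lce3c) through loricrin and Sprr2d to a shallow one (Ivl). Each is the 250 bases before the start in RefSeq, build GRCm38.p6, written 5′ to 3′ on the gene's strand, and capitals mark the letters TGANTCA (read by AP-1, the dimers of Jun and Fos proteins), TATAAA (the TATA box) and GGGTGTGG (a GT box of the kind that KLF factors read). They lie at chr3:93393449-93393698 on the plus strand (Rptn), chr3:92778900-92779149 on the minus strand (Lce1i), chr3:92944236-92944485 on the plus strand (Lce3c), chr3:92338890-92339139 on the plus strand (Sprr2d), chr3:92083143-92083392 on the minus strand (Lor) and chr3:92573736-92573985 on the minus strand (Ivl).
Rptn: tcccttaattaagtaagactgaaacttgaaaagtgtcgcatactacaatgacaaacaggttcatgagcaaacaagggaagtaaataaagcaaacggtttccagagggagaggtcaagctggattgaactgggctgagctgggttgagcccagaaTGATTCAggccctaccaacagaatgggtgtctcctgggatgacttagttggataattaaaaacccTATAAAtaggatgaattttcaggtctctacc
Lce1i: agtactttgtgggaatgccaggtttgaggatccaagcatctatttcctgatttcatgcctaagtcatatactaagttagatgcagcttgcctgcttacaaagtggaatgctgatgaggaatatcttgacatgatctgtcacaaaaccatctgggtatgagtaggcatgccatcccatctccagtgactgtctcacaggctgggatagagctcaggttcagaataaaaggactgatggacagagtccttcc
Lce3c: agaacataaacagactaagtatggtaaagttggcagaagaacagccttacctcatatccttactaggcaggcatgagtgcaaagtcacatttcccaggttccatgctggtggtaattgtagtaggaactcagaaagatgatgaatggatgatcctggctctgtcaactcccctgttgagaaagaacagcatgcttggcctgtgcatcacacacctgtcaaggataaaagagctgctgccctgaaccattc
Sprr2d: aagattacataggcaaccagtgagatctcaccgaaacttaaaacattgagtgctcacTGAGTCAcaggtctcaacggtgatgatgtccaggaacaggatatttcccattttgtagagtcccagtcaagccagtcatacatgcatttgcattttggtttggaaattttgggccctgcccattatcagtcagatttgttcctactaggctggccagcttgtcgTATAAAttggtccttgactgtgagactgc
Lor: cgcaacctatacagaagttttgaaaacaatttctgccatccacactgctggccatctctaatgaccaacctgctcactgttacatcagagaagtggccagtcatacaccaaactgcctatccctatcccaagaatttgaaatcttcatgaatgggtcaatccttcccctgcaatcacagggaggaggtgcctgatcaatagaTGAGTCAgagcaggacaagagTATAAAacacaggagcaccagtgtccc
Ivl: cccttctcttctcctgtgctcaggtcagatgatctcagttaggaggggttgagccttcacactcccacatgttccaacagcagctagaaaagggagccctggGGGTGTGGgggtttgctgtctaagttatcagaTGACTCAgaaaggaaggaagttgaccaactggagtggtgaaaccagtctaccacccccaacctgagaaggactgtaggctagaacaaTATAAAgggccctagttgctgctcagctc

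Promoters from 250 bases before to 50 after the start were given for 39 of the 44 members, all but Crct1, Kprp, Lce1f, Sprr2g and Sprr2j-ps. Searched on both strands, TGANTCA was present in 14 of the 39 (35.9%) and in 7.81% of all 32851 promoters of the same length. The 14 were all 7 Sprr2 promoters, Sprr1a, Sprr1b, Rptn, Flg2, Tchhl1, Lor and Ivl, whereas 0 of 13 Lce1 and Lce6a promoters and 0 of 5 Lce3 promoters held these letters. The middle base was T in Rptn and A in Flg2, Sprr1b and Tchhl1, so these matches differ from the AP-1 site at that base. TATAAA was present in 17 of the 39 (43.6%), against 13.6% of all promoters, among them all 7 of Sprr2 and 3 of 18 of the Lce genes. The match began at base -29 from the start in the Sprr2 genes and at -30 in Lce1d. In Lce6a and Lce3e it lay on the other strand, at -218 and -243. Letters close to TATAAA were not searched for. GGGTGTGG was found in Ivl and Cnfn (5.13%, against 3.56% of all promoters). No match in the 6 stretches printed here overlaps another. The Sprr2 genes are close copies of each other, and a match describes letters, not binding.

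Values are RMA signals on the log2 scale, 1 per probe set. The arrays of the epidermis and of the DRG were taken as normalized apart, since their medians were 5.76 to 5.84 and 6.92 to 6.95. The background of an array was set at the 95th percentile of its signal over 1218 probe sets of chemosensory receptor genes (odorant, vomeronasal and trace-amine), which came to 4.58 to 4.79 on the epidermis arrays and 5.77 to 5.92 on the DRG arrays. Replicate arrays of a group correlated across probe sets with r of 0.986 to 0.993. Trpa1 lay below background on all 12 epidermis arrays, at 3.61 to 3.97, and in DRG it lay at 8.89 to 9.08 in control and 8.44 to 8.84 in mutant mice (log2 fold change -0.38, limma adjusted p = 0.482). The sources used here do not place its probes against the deleted exons. Suprabasal keratinocyte markers such as Krt1 and Krt10 were above background on every epidermis array (7 of 7). The array of CFA control replicate 3 stood apart from the other CFA control arrays, as described where it bears on a result.

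In naive control epidermis 36 of the 44 members were above background on all 3 arrays, and the same number were so in naive mutant epidermis. The counts fell to 27 in CFA control and 26 in CFA mutant epidermis. Sprr3, best known from oral and oesophageal epithelium, Smcp, which encodes a sperm mitochondrial capsule protein, Lce3b and Sprr2g were below background on all 12 epidermis arrays, and the pseudogene Sprr2j-ps rose above it on 1 naive control array alone. In DRG 10 members were above background in each genotype.

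At 2 days after CFA, 37 of the 44 members were lower in control epidermis than in naive control epidermis and 0 were higher (limma, adjusted p under 0.05, 3 arrays per group). Of all probe sets tested, 14.8% were called lower and 11.5% higher, and the median log2 fold change was -2.48 for the members and 0.03 for all probe sets. The falls were deepest in several Lce1 genes, Lce3c, Crct1 and Rptn, intermediate in Sprr1, Cnfn, Kprp and loricrin, and shallow in involucrin and hornerin. Of the 55 probe sets called lower with a fitted fall of at least 8-fold, 0.235% of all tested, 14 were members. Fitted values are not limited by background. The 14 include Lce3e, whose CFA signal was below background, and Rptn, whose CFA signal was mostly at it. Epidermis was profiled in bulk, so fewer cells of a type and less RNA per cell cannot be told apart.

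In mutant epidermis 37 of 44 were again lower and 0 higher after CFA, with 13.1% of all probe sets lower and 12.9% higher. The median log2 fold change was -2.83 for the members and 0.04 for all probe sets. Of the 56 probe sets called lower with a fitted fall of at least 8-fold in mutant mice, 0.239% of all tested, 19 were members. The 19 include Flg2, whose CFA mutant signal was below background, and Rptn. The control and mutant responses rest on different arrays, and over the 44 members their log2 fold changes correlated with Pearson's r of 0.944 and Spearman's rho of 0.941. This correlation is across genes, which share arrays and, in part, sequence. Members below background in naive epidermis, such as Sprr3, Smcp and Lce3b, had little room to fall in either genotype, so signal level also enters it.

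The late cornified envelope genes responded as a block. All 14 Lce1 and Lce6a genes were lower after CFA in both genotypes, with a median log2 fold change of -3.40 in control and -4.27 in mutant epidermis. Lce1i showed the deepest fall among them. Its log2 signal was 12.07, 12.21 and 12.13 on the naive control arrays and 7.18, 7.49 and 6.81 on the CFA control arrays, and it was 12.11, 12.07 and 12.17 on the naive mutant arrays and 6.64, 5.95 and 5.84 on the CFA mutant arrays. The naive arrays lay close together, and every CFA array lay far below them. This was a 31.4-fold fall in control mice (log2 fold change -4.97, SE 0.16, adjusted p = 2.16e-07) and a 62.9-fold fall in mutant mice (-5.97, SE 0.19, adjusted p = 3.05e-07).

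Lce1f read 10.15, 10.52 and 10.28 in naive control and 6.13, 6.58 and 5.55 in CFA control epidermis, and 10.30, 10.26 and 10.36 in naive mutant and 5.11, 5.10 and 5.19 in CFA mutant epidermis. Lce1h read 12.85, 12.94 and 12.85, then 8.73, 9.26 and 7.98 after CFA in control mice, and 12.90, 12.87 and 12.96, then 7.92, 8.00 and 7.37 in mutant mice. Lce1d read 11.06, 11.11 and 11.08, then 7.20, 7.75 and 6.77 in control mice, and 11.07, 10.99 and 11.10, then 6.11, 6.16 and 6.07 in mutant mice. In each of these genes CFA control replicate 3 was the lowest of the CFA control arrays. Their falls were 18.8-fold, 18.7-fold and 14.4-fold in control and 36.1-fold, 35.5-fold and 30.7-fold in mutant epidermis (highest adjusted p = 5.52e-06 in control and 2.59e-07 in mutant).

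Lce1j had the smallest fall of the family. It read 13.09, 13.03 and 13.01 before and 11.70, 11.79 and 11.16 after CFA in control mice, and 13.11, 13.04 and 13.08 before and 11.24, 11.40 and 11.12 after CFA in mutant mice, falls of 2.81-fold and 3.53-fold with no overlap. Lce6a, which sits at the edge of the Lce1 block, fell 11.6-fold and 22.9-fold. It read 10.91, 11.02 and 10.89 before and 7.71, 7.60 and 6.89 after CFA in control mice, and 10.77, 10.70 and 10.85 before and 6.39, 6.25 and 6.13 after CFA in mutant mice. Lce1g was below background on all CFA arrays, so its fall is given as at least 13.3-fold in control and at least 12.4-fold in mutant mice, with the background put in place of the dim group. The others, Lce1a1, Lce1a2, Lce1b, Lce1c, Lce1e, Lce1k and Lce1l, fell 5.03-fold to 11.0-fold in control and 7.70-fold to 23.0-fold in mutant mice. Lce1 genes are close copies, and how far their probes share signal was not tested.

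The Lce3 genes are the members of the family known for induction in psoriasis and after barrier damage, and 0 of 5 rose here. Lce3c read 10.44, 10.36 and 10.38 in naive control and 5.61, 6.03 and 5.12 in CFA control epidermis, and 10.07, 10.20 and 10.27 in naive mutant and 5.46, 5.20 and 5.37 in CFA mutant epidermis. All CFA arrays lay below all naive arrays. The fall was 28.0-fold in control (log2 fold change -4.81, SE 0.19, adjusted p = 6.4e-07) and 28.6-fold in mutant mice (-4.84, SE 0.09, adjusted p = 3.88e-08). Lce3e and Lce3f fell at least 2.90-fold and at least 4.33-fold in control, and at least 1.78-fold and at least 3.58-fold in mutant mice, to below background. Lce3a was below background on all 3 CFA control arrays and fell at least 1.76-fold in control mice (adjusted p = 0.0275), a call lost under 8 of the alternatives run, and it was not called in mutant mice (adjusted p = 0.203). Lce3b lay below background throughout, so its calls carry no fold.

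**Figure D1:**
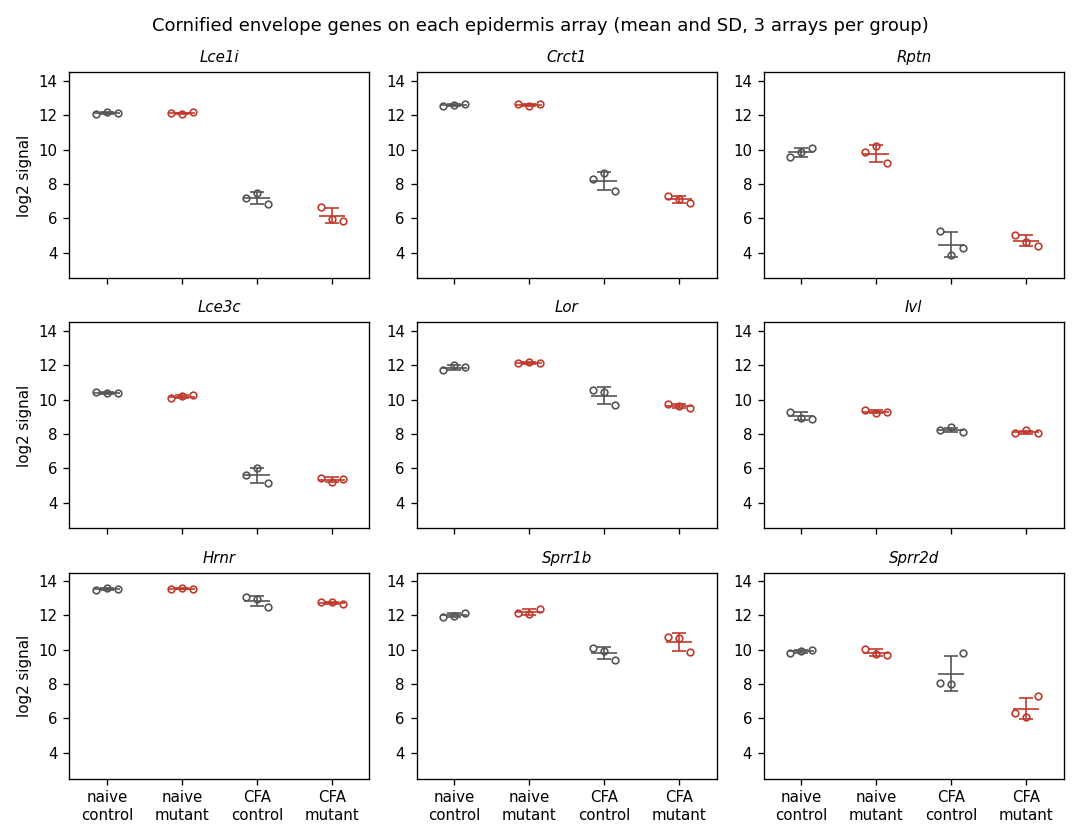
Log2 signal (y axis) of 9 members on each of the 12 epidermis arrays, by group (x axis), with open circles for arrays and the mean and SD of 3 arrays per group (grey, control; red, mutant). Lce1i, Crct1, Rptn and Lce3c drop by several log2 units after CFA in both genotypes, loricrin (Lor) and Sprr1b drop less, and Ivl and Hrnr drop least, while Sprr2d is spread most widely among the CFA control arrays.

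Crct1, a cysteine-rich protein encoded beside the Lce3 genes, was among the deepest falls. Its signal was 12.54, 12.63 and 12.64 in naive control and 8.27, 8.62 and 7.58 in CFA control epidermis, and 12.66, 12.52 and 12.63 in naive mutant and 7.28, 7.14 and 6.89 in CFA mutant epidermis. This was a 21.8-fold fall in control (log2 fold change -4.44, SE 0.22, adjusted p = 1.73e-06) and a 45.4-fold fall in mutant mice (-5.50, SE 0.11, adjusted p = 3.88e-08). Kprp, a keratinocyte proline-rich protein whose gene lies within the Lce1 block, fell 7.02-fold and 13.0-fold. It read 12.72, 12.82 and 12.85, then 10.42, 10.40 and 9.12 in control mice, and 12.86, 12.85 and 12.83, then 9.17, 9.33 and 8.95 in mutant mice.

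Loricrin, the bulk protein of the envelope, read 11.71, 12.03 and 11.89 in naive control and 10.58, 10.46 and 9.69 in CFA control epidermis, and 12.12, 12.23 and 12.12 in naive mutant and 9.76, 9.61 and 9.54 in CFA mutant epidermis. It fell 3.10-fold (log2 fold change -1.63, SE 0.21, adjusted p = 0.000486) and 5.73-fold (-2.52, SE 0.08, adjusted p = 4.03e-07). Involucrin, the early scaffold, moved little: it was 9.31, 8.94 and 8.90 before and 8.22, 8.38 and 8.11 after CFA in control mice, and 9.41, 9.21 and 9.31 before and 8.05, 8.21 and 8.04 after CFA in mutant mice. The groups still did not overlap, and the falls of 1.76-fold and 2.31-fold passed the test (adjusted p = 0.00156 and 3.98e-05). Cornifelin, which lies outside the complex on chromosome 7, read 12.61, 12.77 and 12.72 in naive control and 9.97, 9.79 and 9.07 in CFA control epidermis, and 12.73, 12.56 and 12.80, then 10.22, 9.70 and 9.43 in mutant mice. Its falls of 8.50-fold and 7.51-fold (adjusted p = 7.39e-06 and 1.46e-05) were of the size seen inside the complex. Lelp1 and Smcp, near background in every group, were not called in either genotype (adjusted p = 0.151 to 0.439).

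The S100-fused genes were lower in both genotypes in 5 of 5 cases but over a wide range. Rptn, repetin, read 9.54, 9.89 and 10.09 in naive control and 5.28, 3.86 and 4.27 in CFA control epidermis, and 9.88, 10.19 and 9.23 in naive mutant and 5.02, 4.64 and 4.38 in CFA mutant epidermis. Only 1 of 3 arrays in each CFA group was above background, so the fitted falls of 41.3-fold (log2 fold change -5.37, SE 0.31, adjusted p = 3.88e-06) and 33.9-fold (-5.08, SE 0.24, adjusted p = 3.57e-06) rest largely on signal at background. Hornerin (Hrnr), a filaggrin-like protein of the upper epidermis, read 13.49, 13.61 and 13.55 before and 13.04, 12.93 and 12.49 after CFA in control mice, and 13.55, 13.60 and 13.55 before and 12.77, 12.77 and 12.64 after CFA in mutant mice. The groups did not overlap, and the falls were 1.66-fold and 1.79-fold (adjusted p = 0.00464 and 0.000108). Flg2, filaggrin-2, fell at least 5.78-fold in mutant mice, and its fitted fall of 7.39-fold in control mice rests largely on signal at background, since 1 of 3 CFA control arrays was above it. Tchh, trichohyalin of the hair follicle inner root sheath, fell 4.02-fold and 2.57-fold, and Tchhl1 fell 1.81-fold and 1.52-fold. The 9 hair and inner root sheath keratins on a marker list, with a summed linear signal of 1274 to 1475 in naive control and 311 to 369 in CFA control epidermis, moved in the same direction as Tchh (9 of 9 lower in control, 6 of 9 in mutant mice), and their part in its fall was not tested.

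Among the proline-rich bridging genes, Sprr1a, Sprr1b and Sprr4 were lower in both genotypes and Sprr3 was not called. Sprr1b, the SPRR1 member known for induction in squamous stress, read 11.93, 11.99 and 12.14 in naive control and 10.09, 9.91 and 9.40 in CFA control epidermis, and 12.14, 12.06 and 12.37 in naive mutant and 10.76, 10.71 and 9.84 in CFA mutant epidermis. It fell 4.66-fold (log2 fold change -2.22, SE 0.16, adjusted p = 1.58e-05) and 3.37-fold (-1.75, SE 0.22, adjusted p = 0.000826). Sprr1a fell 7.19-fold and 5.96-fold. Sprr4 read 8.50, 8.85 and 8.77, then 5.20, 5.26 and 5.09 in control mice, and 8.96, 7.80 and 8.72, then 4.82, 5.25 and 4.79 in mutant mice, falls of 11.5-fold and 11.6-fold.

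The 9 Sprr2 genes were the most uneven family, with 5 lower and 4 not called in control and 6 lower and 3 not called in mutant mice. Sprr2d read 9.84, 9.92 and 10.00 in naive control and 8.05, 7.98 and 9.79 in CFA control epidermis, and 10.04, 9.76 and 9.71 in naive mutant and 6.31, 6.11 and 7.30 in CFA mutant epidermis. CFA control replicate 3 lay just below the naive arrays, and the control fall of 2.48-fold was near the threshold (adjusted p = 0.0395) and was lost when any 1 of the arrays other than CFA control replicate 3 was left out, whereas the mutant fall was 9.62-fold (adjusted p = 7.84e-05). Sprr2b was as uneven: it read 7.22, 7.71 and 7.67, then 5.71, 5.33 and 7.56 in control mice, and 7.55, 6.93 and 6.45, then 4.47, 4.48 and 6.76 in mutant mice, and was not called in either (adjusted p = 0.0682 and 0.0543). Sprr2h fell at least 5.30-fold in mutant mice, and its fitted fall of 4.72-fold in control mice rests largely on signal at background, with 1 of 3 CFA control arrays above it. Sprr2e, Sprr2i and Sprr2k were called lower in both genotypes at signals near background, Sprr2f and Sprr2j-ps in neither, and Sprr2g in mutant mice (adjusted p = 0.041) but not in control mice (adjusted p = 0.0966). Sprr2g was below background on all 12 epidermis arrays, and its call was lost under 10 of the alternatives run.

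The arrays on which Sprr2b and Sprr2d stayed highest also carried more of the keratins of wounded epidermis. The mean log2 signal of Krt6a, Krt6b, Krt16 and Krt17 was 9.55, 8.72 and 10.6 on CFA control arrays 1 to 3 and 9.14, 9.43 and 10.5 on CFA mutant arrays 1 to 3. In each group replicate 3 was highest, as it was for Sprr2b and Sprr2d. Other Sprr2 genes differed: Sprr2h, Sprr2j-ps and Sprr2k were lowest on replicate 3 of CFA mutant epidermis, at signals below background. Without CFA control replicate 3, 36 members were lower after CFA in control mice, with a median of -2.34. The part of these keratins in the Sprr2 values was not tested.

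**Figure D2:**
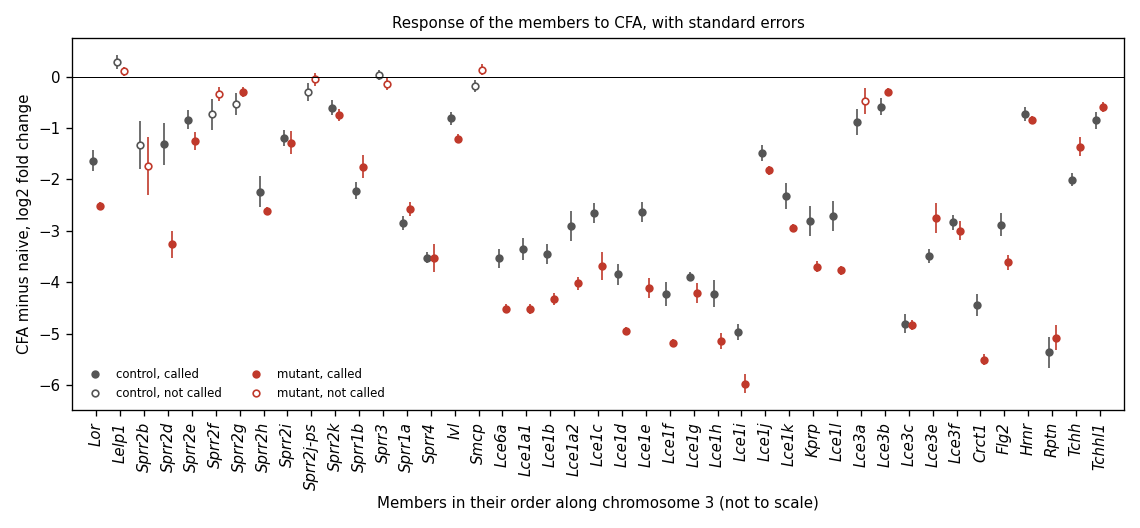
Log2 fold change after CFA (y axis) of the 43 members on chromosome 3 in gene order (x axis, not to scale), in control (grey) and mutant (red) epidermis, with standard errors and open symbols for members not called. The run from Lce6a to Lce1l lies between -1.49 and -5.97 in both genotypes, while the open symbols belong to Lelp1, Smcp, Sprr3, Lce3a and 4 Sprr2 genes.

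Along chromosome 3 the members stand in runs, with Lor, Lelp1, the Sprr genes and Ivl first, then Lce6a, the Lce1 genes with Kprp among them, the Lce3 genes, Crct1 and the S100-fused genes. The Lce6a to Lce1l run, 15 genes with Kprp, was lower after CFA in both genotypes, 15 of 15 genes in each. Neighbours could nonetheless differ: Smcp, between Ivl and Lce6a, was near background and not called, and Hrnr with a small fall lies between Flg2 and Rptn with large falls. Hrnr read 13.49 to 13.61 on the naive arrays, where the highest signal of any named probe set was 13.756 to 13.865. Whether a signal so near the top of the scale limits its fall was not tested.

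Genes that act on or beside the envelope were lower as well, with a median log2 fold change of -0.60 for the cross-linking and scaffold genes and -1.31 for filaggrin processing in control mice. Of 14 cross-linking and scaffold genes, 11 were lower in control and 8 in mutant mice, and 0 were higher in either. Cdsn, corneodesmosin of the corneocyte junctions, had log2 fold changes of -2.91 and -3.49, the cystatins Cst6 and Csta1 -2.38 and -2.37 in control, and the transglutaminases Tgm5 and Tgm1 -1.88 and -1.45 in control. Tgm3 (-0.23) and the desmosomal plakin Dsp (0.00) were not called. Of 14 genes of filaggrin processing, 9 were lower in control and 10 in mutant mice, led by Asprv1, the protease that cleaves profilaggrin (-3.13 and -3.72), and the kallikrein Klk7 (-2.81 and -3.32). Next were Prss8 (-2.64) and Klk5 (-2.49) in control mice, and in mutant mice Hal, which makes urocanic acid from histidine (-3.07, against -1.84 in control), ahead of Prss8 (-2.68) and Klk5 (-2.66).

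The keratins below the envelope moved differently. In naive control epidermis Krt1, Krt2 and Krt10 had mean log2 signals of 13.15 to 13.40, near the highest on the arrays. Whether this limits their change was not tested. The suprabasal keratins Krt1 (-0.25), Krt2 (-0.07) and Krt10 (-0.07) were not called in control mice (adjusted p = 0.0678 to 0.605), nor in mutant mice, while 10 of 14 genes of terminal differentiation were lower in control mice and 7 in mutant mice, led by Krt78 (-2.55 and -2.19) and Krt80 (-1.68 and -1.71). Basal keratins and adhesion genes were higher, 5 of 8 in control and 7 of 8 in mutant mice, led by the integrins Itga6 (1.07 and 1.17) and Itgb4 (0.70 and 0.81). Wound keratins were not called in control mice (0 of 4 by limma and by an ordinary ANOVA, 2 higher without CFA control replicate 2 or with the replicate block, 1 lower without CFA control replicate 3), and Krt16 (2.15, adjusted p = 0.0124) and Krt6a (1.03, adjusted p = 0.0205) were higher in mutant mice, calls that an ordinary ANOVA and limma with trend and robust moderation did not make (0 of 4). In control mice Krt16 had 1.52 (SE 0.64, adjusted p = 0.113). The marker lists were chosen with earlier results of these data known, so these counts describe the samples and are no independent test.

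**Figure D3:**
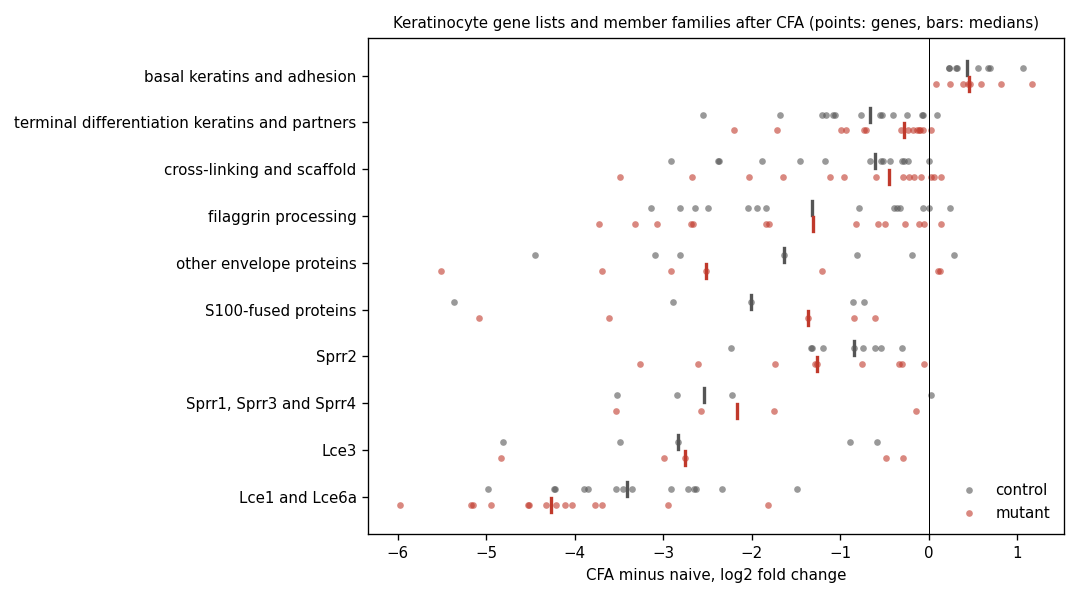
Log2 fold change after CFA (x axis) of each gene of 4 keratinocyte lists and of the 6 member families (rows), in control (grey) and mutant (red) epidermis, with bars at the medians. Basal genes lie to the right of 0 with a median of 0.44 in control mice, terminal differentiation and cross-linking genes lie mostly to the left, and Lce1 and Lce6a lie farthest left with medians of -3.40 and -4.27.

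Of 25 measured regulators of the complex, 5 were higher and 12 lower in control mice, and 6 were higher and 8 lower in mutant mice. The deepest fall was in Prdm1, the Blimp1 repressor needed for normal cornification (-2.98 and -3.24), followed by Jun (-1.93 and -1.53), Fosl1 (-1.61 in control, adjusted p = 0.000388, and -0.41 in mutant, adjusted p = 0.373), Hopx (-1.18 and -1.50) and Klf4, a driver of barrier formation (-1.01 and -0.80). Notch1, Trp63, Maf and Nfe2l2 were higher in both genotypes, by 0.42 to 0.76. The S100 genes that lie in the same complex were lower in 5 of 11 cases in each genotype, with S100a3 at -2.07 and -2.16. The alarmins S100a8 (2.37, SE 1.01) and S100a9 (1.94, SE 1.05) had raised means that did not pass the test in control mice (adjusted p = 0.117 and 0.206).

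Markers of other cell types moved in both directions. For scale, 14.8% of all probe sets were called lower and 11.5% higher after CFA in control mice. The 6 neutrophil markers summed to a linear signal of 194 to 214 in naive control and 130 to 154 in CFA control epidermis, with 1 called lower and 0 higher in control mice. This sum weighs Cxcr2 most, at a mean log2 signal of 6.72 in naive control epidermis against 3.23 to 4.77 for the others. The median log2 fold change of the neutrophil list in control mice was 0.04. Of the 6 macrophage and monocyte markers 2 were higher and 1 lower, and in control mice 1 of 4 T cell, 2 of 3 Langerhans cell and 2 of 6 fibroblast markers were higher, with 1 fibroblast marker lower, while 0 of 4 endothelial, 0 of 4 skeletal muscle and 0 of 5 sensory neuron markers were called. Of 4 melanocyte and 4 sweat gland markers 1 each was lower, and of 3 glial markers 1 was higher and 1 lower. The suprabasal marker list summed to 41470 to 43240 in naive control and 35980 to 38860 in CFA control epidermis, and the basal list to 13760 to 14140 and 17520 to 18990. In control mice the basal sum was thus higher and the suprabasal sum lower where the members fell. The suprabasal sum weighs Krt1, Krt2 and Krt10 most, and these were not called. Of 7 suprabasal markers 3 were lower in control and 1 in mutant mice, and of 6 basal markers 5 were higher in each genotype. The part of these markers in the members' falls was not tested.

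In naive epidermis the genotypes did not differ in any member by the test: 0 were called lower and 0 higher (limma), against 0.0299% and 0% of all probe sets, and an ordinary ANOVA also called 0. At an unadjusted p under 0.05 there were 6 lower and 2 higher, or 8 of 44, against 4.78% lower and 4.16% higher over all probe sets. The median log2 fold change was -0.04. All 9 Sprr2 genes and all 5 Lce3 genes had negative values, with medians of -0.18 and -0.26. Above background on all 3 arrays were 5 of these Sprr2 and 4 of these Lce3 genes in each naive group. Lce1e had the smallest adjusted p: it read 11.80, 11.95 and 12.06 in control and 12.42, 12.35 and 12.29 in mutant mice (log2 fold change 0.41, SE 0.08, adjusted p = 0.302). Loricrin was 0.28 higher (SE 0.09, adjusted p = 0.475) and Tchh lower in mutant mice (log2 fold change -0.52, SE 0.16, adjusted p = 0.475). The hair and inner root sheath list summed to 698 to 1100 in naive mutant epidermis, below naive control, and its part in the Tchh value was not tested.

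In CFA epidermis the mutant arrays read lower than the control arrays for many members, yet 0 were called lower and 0 higher by limma on these 6 arrays, and 0 by an ordinary ANOVA. The background was 0.0982% lower and 0.0812% higher. At an unadjusted p under 0.05, 19 were lower and 2 higher, against 3.91% and 5.05% of all probe sets, and 16 of 44 members had every mutant array below every control array, against 5.6% of all probe sets. Of the 16, 9 were Lce1 or Lce6a genes, and Lce1 genes are close copies. In the other direction 1 member, Smcp, had every mutant array above every control array, at signals below background. All 14 Lce1 and Lce6a genes were negative, with a median of -0.96, and 11 of them had an unadjusted p under 0.05. All 9 Sprr2 genes were negative too, with a median of -0.33, and 3 of them had an unadjusted p under 0.05, as had 4 of the 7 other envelope proteins in the same direction. Of the 9 Sprr2 genes, 2 were above background on all 3 CFA control arrays and 1 on all 3 CFA mutant arrays. Sprr2e, Sprr2f, Sprr2g, Sprr2i, Sprr2j-ps and Lce1g were below background on all 6 arrays, so their signs are no measured difference. Sprr2e and Sprr2g are nonetheless counted among the 16. Lce6a, whose arrays are given above, had a log2 fold change of -1.15 (SE 0.19, adjusted p = 0.0658), and Lce1d -1.13 (SE 0.20, adjusted p = 0.083). Flg2 read 4.65, 4.88 and 4.37 in CFA control and 3.95, 3.49 and 3.54 in CFA mutant epidermis (adjusted p = 0.0636). All 3 mutant and 2 of the 3 control arrays were below background for this gene, so no fold is given. Sprr2d had the largest difference (-2.03, SE 0.46, adjusted p = 0.169), Crct1 had -1.06 (adjusted p = 0.146) and loricrin -0.61 (adjusted p = 0.392).

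The direction was not shared by all envelope genes. Sprr1b was higher in mutant CFA epidermis by 0.64 (SE 0.25, adjusted p = 0.479), and the Lce3 genes had a median of -0.05. Cnfn (0.17), Rptn (0.21), Tchh (0.13) and Tchhl1 (0.06) had small positive values. Cross-linking genes had a positive median (0.19) and 0 of 14 called, with Tgm1 at 0.42 and Tgm3 at 0.31. In the filaggrin processing list 1 of 14 was called, Hal, histidase (-1.62, SE 0.19, adjusted p = 0.0143). Wound keratins had a median of 0.06, with 0 of 4 called. Among other cell types Csf1r, a macrophage and Langerhans cell receptor, was lower in mutant CFA epidermis (-0.78, adjusted p = 0.0103), and Cd207 of Langerhans cells had -0.70 (adjusted p = 0.0873). Their part in the members' values was not tested.

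These genotype calls depended on the fit and on 1 array. With all 4 epidermal groups in 1 fit, which pools the spread of 12 arrays, 10 members were called lower: Lce1a1, Lce1b, Lce1d, Lce1e, Lce1f, Lce1i, Lce6a, Crct1, Flg2 and Sprr2d (0.598% of all probe sets). The mean log2 signal of the Lce1 and Lce6a genes was 8.35, 8.54 and 7.66 on CFA control arrays 1 to 3 and 7.41, 7.36 and 7.15 on CFA mutant arrays 1 to 3. CFA control replicate 3 lay nearer to the mutant arrays than the others of its group. Without it, 12 members were called lower, 8 of them Lce1 or Lce6a genes, with Crct1, Kprp, Lor and Flg2 (0.355% of all probe sets), and the CFA control group then rests on 2 arrays.

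**Figure D4:**
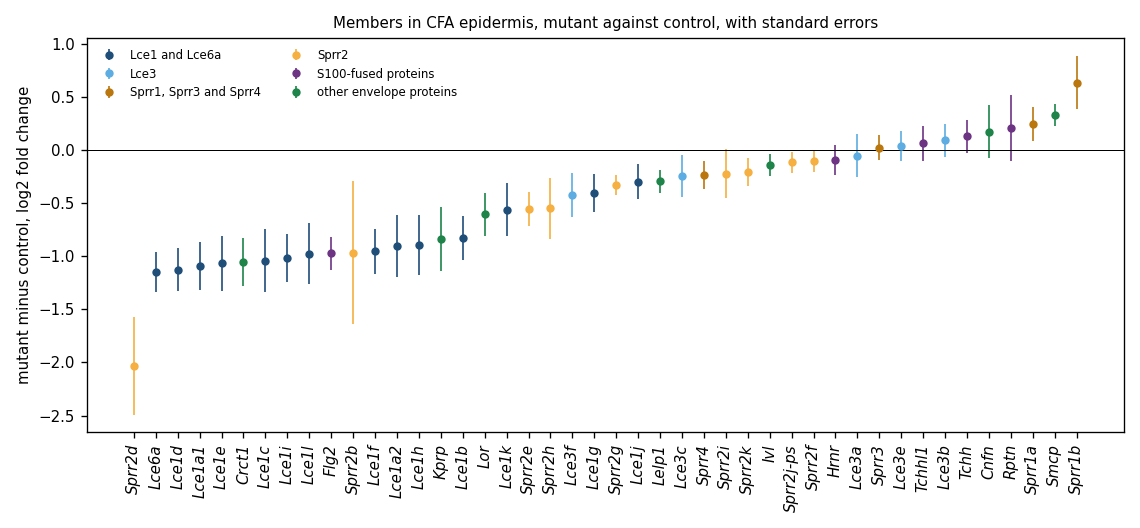
Log2 fold change of mutant against control in CFA epidermis (y axis) for each of the 44 members, ordered by value and coloured by family, with standard errors. The Lce1 and Lce6a genes lie mostly to the left with a median of -0.96, the Lce3 genes have a median of -0.05, and Sprr1b lies highest at 0.64. No point was called in this comparison.

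The difference between genotypes in the CFA response itself, tested as an interaction over the 12 epidermis arrays, gave 0 members lower and 0 higher by limma and by an ordinary ANOVA (background 0.0128% in each direction). At an unadjusted p under 0.05, 17 were lower and 1 higher, against 3.68% and 4.58% of all probe sets. The fitted difference was negative for all 14 Lce1 and Lce6a genes, with a median of -0.99, though none of them was called. Lce1g was below background on all CFA arrays, so its difference was not measured. Lce1e came nearest to the threshold (-1.48, SE 0.31, adjusted p = 0.175). Sprr2d had the largest difference (-1.95, SE 0.56, adjusted p = 0.355), and Tchh the opposite sign (0.64, SE 0.24, adjusted p = 0.499). Without CFA control replicate 3, 12 members were called lower (0.303% of all probe sets), namely 9 Lce1 or Lce6a genes, Lor, Kprp and Crct1.

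In DRG, which holds sensory neurons and glia, 0 members were called lower and 0 higher between genotypes by limma and by an ordinary ANOVA (background 0.047% and 0.0256%), and 2 were lower and 2 higher at an unadjusted p under 0.05 (3.56% and 3.58% of all probe sets). Most members lay below background, and DRG and epidermis arrays were taken as normalized apart, so no test was made between the tissues. Lce1j (6.97 to 7.57), Lce1k (7.08 to 7.50) and Cnfn (6.72 to 7.16) were above background on all 6 arrays, as was Sprr1a, also known as a gene of injured sensory neurons. It read 6.50, 6.71 and 6.55 in control and 7.21, 6.69 and 7.10 in mutant mice (log2 fold change 0.41, SE 0.13, adjusted p = 0.585), and the groups overlapped.

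Hornerin was uneven across DRG arrays in a way that did not follow genotype. It read 6.50, 6.45 and 7.23 in control and 7.89, 6.43 and 6.52 in mutant mice. The high arrays, control replicate 3 and mutant replicate 1, also had the highest mean of the suprabasal keratinocyte markers, 6.12 and 6.63, against 5.73 to 5.88 on the other 4. Loricrin was highest on the same arrays, at 5.80 and 6.12, and above background on mutant replicate 1. Without both arrays 0 members were called, and the median moved from 0.02 to -0.04.

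**Figure D5:**
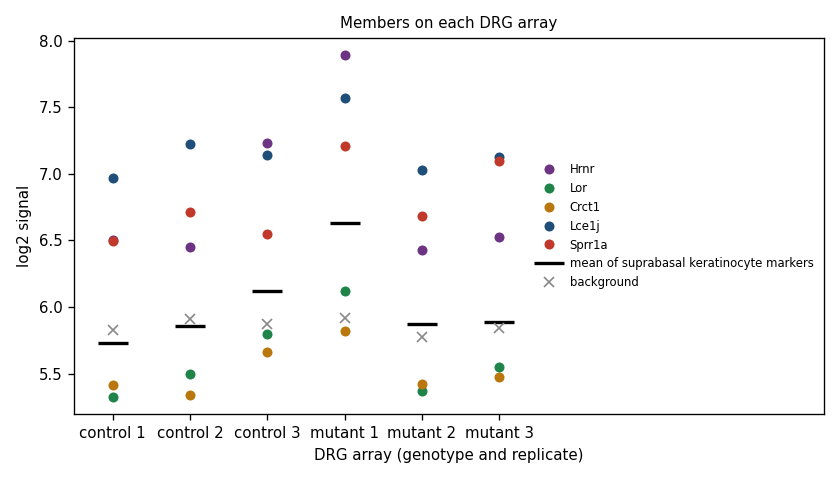
Log2 signal (y axis) of 5 members on each of the 6 DRG arrays (x axis), with the mean of the suprabasal keratinocyte markers (black bars) and the background of each array (crosses). Hrnr reads 7.23 on control 3 and 7.89 on mutant 1, which are the arrays with the highest bars, while Crct1 stays below background on all 6.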

How the data were processed

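Hindpaw epidermis was freed with dispase (1 hour per the labels, less in the methods), and its RNA and that of lumbar DRG was hybridised to Mouse Gene 1.0 ST arrays. The values the authors deposited are on the log2 scale after RMA in Partek Genomics Suite, and their groups were compared by ANOVA. RMA brings arrays processed together to 1 shared distribution, so a shift common to all genes would not be seen. Of the values 0 were missing. They carry no counts, so the number of arrays limits the precision.

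The platform annotation names genes for 23410 probe sets, exactly 1 gene for 21789 of them, and leaves 12146 unnamed. Named probe sets were tested. The 4 that pair a cornified envelope gene with other genes were left out. Every comparison had its own linear model in limma (version 3.58.1, R 4.3.3; lmFit, then eBayes), two-sided, with Benjamini-Hochberg adjustment over 23410 probe sets and calls at an adjusted p under 0.05. A group below background on all 3 arrays was set at background, and its fold is written as at least. The counts of falls of at least 8-fold use the fitted values instead. No fold is given where both groups lay below it. The fits were tested on simulated data. Promoters and figures were made with Python 3.11.15, pandas 2.3.3 and matplotlib 3.10.9.

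All 44 members are named. Values on each array are given for the 6 deepest falls in each CFA comparison, the member of highest mean signal in each family, Lor, Ivl and Cnfn. Others shown by array (Lce6a, Kprp, Sprr4, Sprr2b, Flg2 and Lce1e in epidermis, Hrnr, Lor and Sprr1a in DRG) were chosen after their values were seen. The members, gene lists and the rule for naming genes were chosen with earlier results of these data known. The alternatives were centring each array on its median, dropping dim probe sets, testing all 35556 probe sets, limma with trend and robust moderation, an ordinary ANOVA, the replicate number as a block, 1 fit of the 4 epidermal groups, and leaving out each array in turn. Leaving out both DRG arrays with raised keratinocyte transcripts was added after seeing the data.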

Additional observations from a re-analysis of the deposited data

Results flagged for a closer look

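Smcp, the sperm mitochondrial capsule gene of the complex, was the sole member for which the CFA arrays lay below the naive mean in control mice and above it in mutant mice, on 3 of 3 arrays each. Smcp lay below background on all 12 epidermis arrays, so no fold is given for either genotype. The fitted difference between the responses, 0.318 on the log2 scale, thus comes from signal below background, and its adjusted p was 0.625 in the limma interaction. Groups of 3 arrays are too small for a check of single outlying samples, so none was made.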

How the results depend on the processing

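After CFA, 30 (ordinary ANOVA) to 39 (replicate block) members were lower in control mice and 33 (without dim probe sets, 34 members tested) to 37 in mutant mice, with 0 higher, over all alternatives run. Leaving out 1 array gave 33 to 38 in control and 35 to 37 in mutant mice, with medians of -2.60 to -2.34 and of -2.88 to -2.73. In control mice Lce3a and Sprr2d lost their calls under 8 settings each, Lce3b under 6, Sprr2k under 2, and Hrnr, Tchhl1 and Sprr2e under 1 each, and in mutant mice Sprr2g lost its call under 10, Lce3b under 5 and Sprr2i under 1. Without dim probe sets, where fewer members were tested, the medians were -2.81 in control and -3.575 in mutant mice after CFA, -0.83 between genotypes in CFA epidermis and -0.51 for the difference in response.

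The genotype comparison in CFA epidermis gave 0 calls as reported, 1 member lower (Flg2) with trend and robust moderation, 10 with the 4 epidermal groups in 1 fit, and 0 to 12 when 1 array was left out. The 12 came without CFA control replicate 3, and without CFA mutant replicate 1 Flg2 alone was called. The difference in response gave 0 to 12 lower, with 12 only without CFA control replicate 3. The cause was not tested. Naive epidermis and DRG gave 0 calls under every alternative run. The fit of 4 groups does not apply to the difference in response or to DRG.

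With the replicate number as a block, 16 members were lower and 1 (Sprr1b) was higher between genotypes in CFA epidermis. Same-numbered arrays deviated with r of 0.00169 to 0.233 there and of -0.236 to 0.183 in the other comparisons of 2 groups, and at most 3 of 6 arrays correlated best with their own number. The sample titles link these arrays by number alone, and whether they were processed together was not tested. The block gave 39 lower after CFA in control and 37 in mutant mice and 0 calls elsewhere.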
